A study of Rattus norvegicus with 20 samples.

Results

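The Ttr-rich hippocampal libraries are those in which Ttr, the transthyretin transcript that choroid plexus epithelium makes in very large amounts, stood above 1000 CPM (the count of a gene scaled to the same total in every library). They were 7 of the 20 libraries of a study of Gunn rat pups, and the other 13 are called Ttr-poor here. The libraries were chosen by Ttr itself, so every difference between rich and poor libraries below is a description with no test: a fitted log2 difference with its standard error (SE), and the range of CPM in each set. Gunn rats carry the recessive j allele, a loss of function of Ugt1a1, the enzyme that conjugates bilirubin. All pups were of this strain and were killed at postnatal day 6. Heterozygous pups (Nj, not jaundiced, given as Jj in another label) and homozygous jaundiced pups (jj) were left untreated or had intermittent LED phototherapy (PT) from day 4 to day 6. PT was given for 12 h in all, with an on-off cycle of 3 h. PolyA RNA came from a hippocampal lobe, with 5 libraries in each of the 4 groups formed by genotype and PT. The labels give no litter and no pairing of pups, so p-values measure the spread between these libraries. Library numbers within a group follow the order of deposit and only name a library.

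The choroid plexus is a vascular fold covered by a secretory epithelium that makes cerebrospinal fluid. It hangs into the lateral ventricle along the choroid fissure, where it is attached to the edge of the hippocampus. The epithelium moves sodium, bicarbonate and water from blood to ventricle, carries folate and thyroid hormone, and is sealed by tight junctions over fenestrated capillaries. Besides Ttr, a carrier of thyroxine and of the retinol-binding protein, the 3 other markers of this epithelium given for the split were Kl (klotho, a co-receptor for a fibroblast growth factor hormone), Folr1 (the folate receptor that takes folate across the plexus) and Clic6 (a chloride intracellular channel protein). In whole-tissue libraries such as these, more cells of a type and more RNA per cell cannot be told apart.

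Promoters of 3 genes that stood near the top of the rich libraries and moved with each other from library to library are shown for orientation, each running from 250 bases before to 50 bases after the annotated start, 5′ to 3′ on the gene's strand (RefSeq, build GRCr8). They lie at chr18:12218508-12218807 (plus strand) for Ttr, at chr8:53342284-53342583 (plus strand) for Mfrp, a membrane frizzled-related protein, and at chr12:5325753-5326052 (plus strand) for Kl. Capitals mark a match to TAATCC or its complement GGATTA, the core letters bound by OTX homeodomain factors.
Ttr: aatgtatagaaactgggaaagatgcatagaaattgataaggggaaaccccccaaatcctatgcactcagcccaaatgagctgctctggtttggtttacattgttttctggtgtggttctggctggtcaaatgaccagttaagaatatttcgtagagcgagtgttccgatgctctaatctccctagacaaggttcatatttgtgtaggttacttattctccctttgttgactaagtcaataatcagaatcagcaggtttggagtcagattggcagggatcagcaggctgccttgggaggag
Mfrp: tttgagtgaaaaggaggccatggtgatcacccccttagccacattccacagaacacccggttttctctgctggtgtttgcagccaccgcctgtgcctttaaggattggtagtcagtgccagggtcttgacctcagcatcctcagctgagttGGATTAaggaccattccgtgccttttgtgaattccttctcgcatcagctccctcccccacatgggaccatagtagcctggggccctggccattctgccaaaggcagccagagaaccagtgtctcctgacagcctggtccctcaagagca
Kl: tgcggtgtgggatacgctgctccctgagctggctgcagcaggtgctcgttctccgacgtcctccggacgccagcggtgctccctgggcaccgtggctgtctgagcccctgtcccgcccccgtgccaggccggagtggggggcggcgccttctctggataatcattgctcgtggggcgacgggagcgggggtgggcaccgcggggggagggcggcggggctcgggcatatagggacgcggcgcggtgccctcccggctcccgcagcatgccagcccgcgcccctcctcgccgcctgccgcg
The Mfrp window held 1 such match, at position -99 from the start, and the windows of Ttr and Kl held 0. The table of promoters used had 84 of the 140 genes counted as higher below, with Folr1, Clic6 and Sostdc1 among those it did not hold. TAATCC, read on both strands, was in 8 of these 84 windows (9.52%) and in 7.11% of all 27457 windows of that length. GTTGCC, part of an RFX factor site, was in 8.33% against 12.2% of all, and TGTTTAC, a forkhead core, in 2.38% against 3.76%. These shares describe letters in a window and not binding. Otx2, the plexus homeobox factor, had 7 counts in untreated jj library 3 and 0 counts in the 19 other libraries, where the limit allowed by a count of 0 (3 counts) is 0.111 to 0.178 CPM.

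Ttr ran over more than 3 orders of magnitude between pups. In untreated Nj libraries 1 to 5 it was 752.9, 56.7, 4097, 418.3 and 3.53 CPM. In untreated jj libraries it was 21.8, 159.9, 10092, 52.0 and 6.62 CPM. Treated Nj libraries had 19.4, 3638, 18.7, 425.3 and 3987 CPM, and treated jj libraries had 58.7, 7797, 246.2, 5433 and 6601 CPM. The rich libraries were thus untreated Nj 3, untreated jj 3, treated Nj 2 and 5 and treated jj 2, 4 and 5. The library just inside the threshold, treated Nj 2, and the library just outside it, untreated Nj 1, were 4.83-fold apart. Ttr spanned 2.77-fold within the rich set and 213-fold within the poor set, so the poor libraries do not stand at a common floor.

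**Figure D1:**
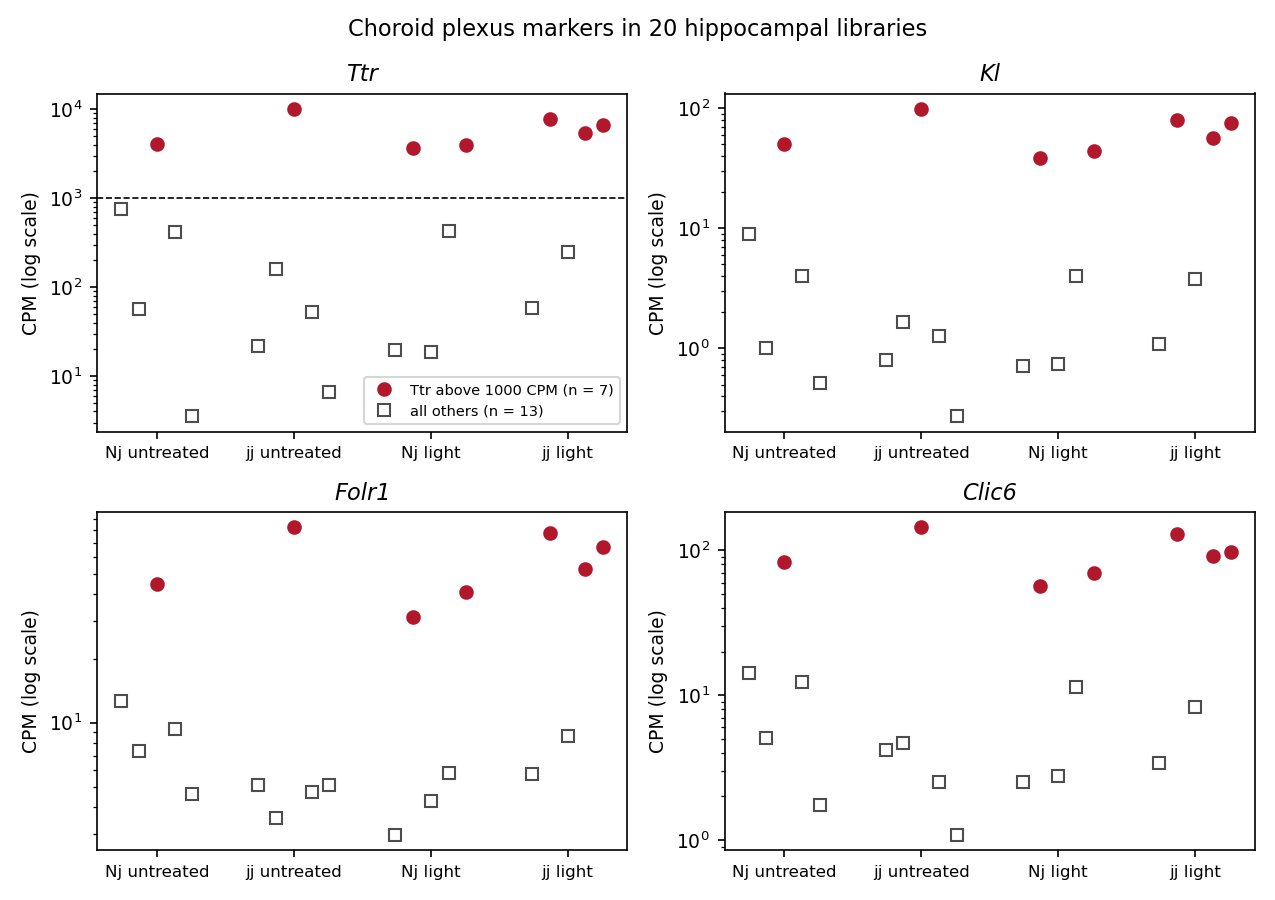
Levels of Ttr, Kl, Folr1 and Clic6 in CPM (log scale) in each of 20 libraries by study group, with the 7 Ttr-rich libraries as filled circles and the 13 others as open squares; the dashed line is the 1000 CPM threshold on Ttr. For each of the 3 other markers every filled circle lies above every open square, with Kl at 38.5 to 98.8 CPM in rich and 0.27 to 9.04 CPM in poor libraries.

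The label of the set was set beside its other markers, which the threshold did not use. They were given together with the split, which was chosen with earlier results known, so this is not an independent check. Kl was 9.04, 1.01, 50.3, 3.98 and 0.51 CPM in untreated Nj libraries 1 to 5 and 0.80, 1.66, 98.8, 1.28 and 0.27 CPM in untreated jj libraries. In treated Nj libraries it was 0.72, 38.5, 0.74, 3.99 and 44.4 CPM, and in treated jj libraries 1.09, 79.4, 3.81, 56.0 and 75.3 CPM. The 7 high libraries are the 7 with Ttr above the threshold, and the sets did not overlap. Folr1 was 12.7, 7.40, 44.7, 9.37 and 4.63 CPM in untreated Nj and 5.13, 3.55, 82.6, 4.74 and 5.08 CPM in untreated jj libraries. It was 2.98, 31.3, 4.28, 5.83 and 40.9 CPM in treated Nj and 5.72, 77.3, 8.69, 52.7 and 67.1 CPM in treated jj libraries. Folr1 again did not overlap, but it stood at 2.98 CPM or more in every poor library, while Kl went down to 0.27 CPM. Clic6 was 14.2, 5.08, 82.8, 12.3 and 1.74 CPM in untreated Nj and 4.18, 4.68, 144.2, 2.50 and 1.09 CPM in untreated jj libraries. It was 2.52, 56.8, 2.75, 11.5 and 69.3 CPM in treated Nj and 3.38, 129.3, 8.28, 90.8 and 97.3 CPM in treated jj libraries. The sum of Kl, Folr1 and Clic6 was 126.7 to 325.6 CPM in rich and 6.21 to 35.9 CPM in poor libraries.

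These markers also followed Ttr within each set, where the threshold plays no part. Over the 7 rich libraries Pearson's r of log2(CPM + 0.1) with log2 CPM of Ttr was 0.984 for Kl, 0.964 for Folr1 and 0.959 for Clic6, with Spearman's rho of 1 for each (exact permutation p = 0.0003968 for each, adjusted over 6 relations 0.0004762). All 3 markers ranked the rich libraries in the same order as Ttr. Ttr in this set was 3638 to 4097 CPM in Nj and 5433 to 10092 CPM in jj libraries, so every jj library stood above every Nj library. These correlations hold no term for genotype, and its part in them was not tested. Without the 2 libraries farthest from the median of Ttr, r was 0.971, 0.991 and 0.934. Over the 13 poor libraries r was 0.953 for Kl (rho 0.973, permutation p = 2e-05, the smallest the resampling can give, adjusted 6e-05) and 0.934 for Clic6 (rho 0.918, permutation p = 2e-05, adjusted 6e-05). Folr1 followed Ttr less closely there, with r = 0.641 (rho 0.703, permutation p = 0.0175, adjusted 0.0175), 0.537 without the 2 farthest libraries, and 0.520 (adjusted permutation p = 0.0832) without untreated Nj 1. The other r values without the 2 farthest poor libraries were 0.977 for Kl and 0.924 for Clic6.

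Ttr-rich libraries were found in each study group. There were 1 in untreated Nj, 1 in untreated jj, 2 in treated Nj and 3 in treated jj, or 5 of 10 treated against 2 of 10 untreated libraries (Fisher's exact test, two-sided, p = 0.350) and 4 of 10 jj against 3 of 10 Nj libraries (p = 1). Mean log2 CPM of Ttr was 9.29 ± 3.54 (SD, n = 10) in treated and 7.14 ± 3.78 in untreated libraries, a difference of 2.15 (two-sided permutation test, p = 0.201, adjusted over 2 comparisons 0.402). It was 8.53 ± 3.97 in jj and 7.89 ± 3.66 in Nj libraries, a difference of 0.64 (permutation p = 0.712). Neither difference was larger than the spread between pups. Sample names begin with a number whose meaning the labels do not give: all treated libraries share 18, untreated jj libraries share 17, and untreated Nj libraries have 13, 14 or 15. PT and this number cannot be told apart, and neither can genotype and this number among untreated libraries. Within number 18 the difference of jj from Nj was 2.16 (10.4 against 8.20, 5 libraries each). Each number holds at most 5 rich and 5 poor libraries, under the minimum of 6 kept here for a correlation. The 5 rich libraries of number 18 had Kl, Folr1 and Clic6 each in the same order as Ttr. Total counts were 17.6 to 23.1 M (M, mega; median 20.7) in rich and 16.9 to 27.1 M (20.1) in poor libraries, and Kdm5d, a Y-linked gene, was above 10 CPM in 2 of 7 rich and 5 of 13 poor libraries. Ttr took 0.364 to 1.01% of all counts of a rich library. TMM scaling factors, which correct for such composition, were 0.985 to 1.05 in rich and 0.984 to 1.01 in poor libraries.

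Across the whole table, the rich libraries differed from the poor by a set of higher genes and almost no lower ones. Of 15272 genes that passed a low-count filter, 140 (0.917%) were at least 2-fold higher in the edgeR fit with study group as a further term and had CPM ranges that did not overlap, and 0 (0%) were at least 2-fold lower in the same way. Dropping the size limit, 244 genes (1.6%) had higher and 1 (0.00655%) had lower values in every rich than in every poor library. The 1 lower gene was Trpc7, a cation channel subunit, at 6.07 to 6.80 CPM in rich and 6.95 to 8.52 CPM in poor libraries (log2 -0.27, SE 0.06). The 5 lowest fitted differences otherwise all belonged to genes with overlapping ranges: Tagln3 (-2.81, SE 1.38), Selenow (-1.85, SE 2.46), Gspt1 (-1.78, SE 0.91) and the Y-linked Eif2s3y (-1.34, SE 1.69) and Ddx3 (-1.30, SE 1.71). Tagln3, a neuronal actin-binding protein, was at 0.42 to 1.71 CPM in rich libraries, while poor libraries had either under 2 CPM or, in untreated Nj 4, untreated jj 2, 4 and 5 and treated Nj 3, 8.52 to 38.1 CPM. Over all genes 6286 differences were positive and 8986 negative, with a median of -0.02.

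**Figure D2:**
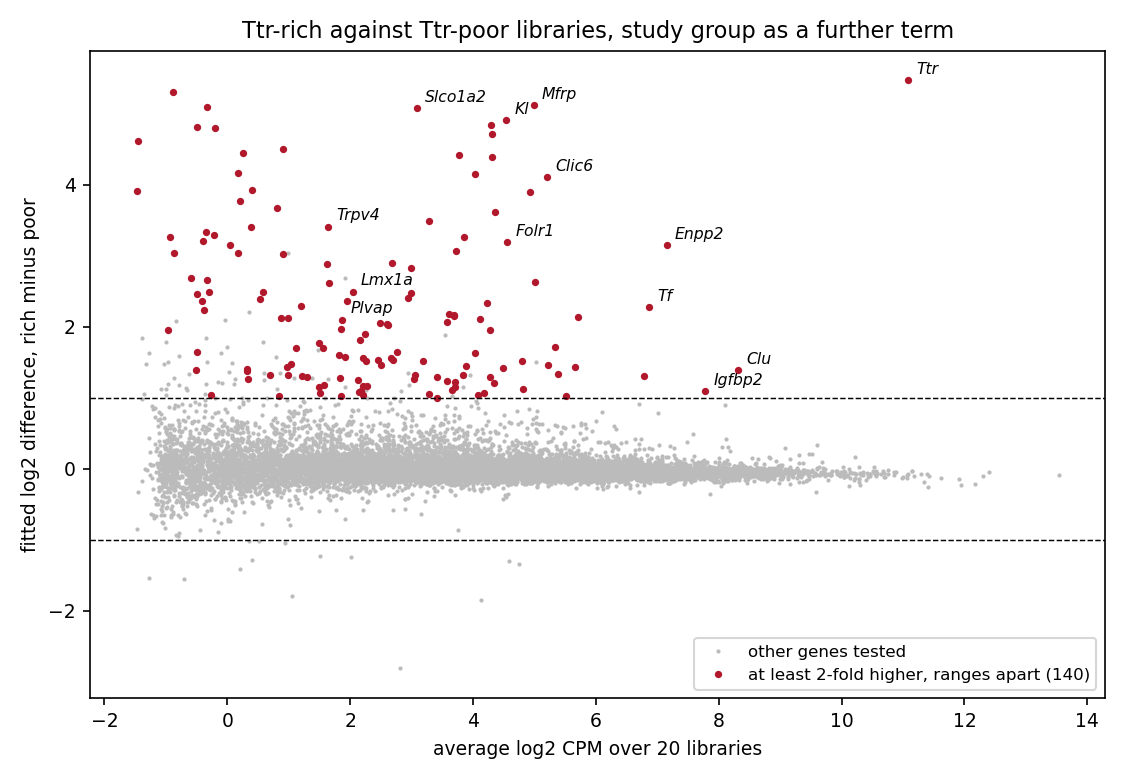
Fitted log2 difference of rich from poor libraries against average log2 CPM over 20 libraries for 15272 genes, with the 140 genes that were at least 2-fold higher and had ranges apart in red and dashed lines at 2-fold. The red points reach 5.47 for Ttr, and no point below the lower line is red.

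The 140 higher genes included 18 at 16-fold or more, 39 at 8-fold or more and 71 at 4-fold or more, and their median log2 difference was 2.03. In 42 of them the mean over poor libraries was under 1 CPM. Summed over the 140 genes, the mean level was 8790 CPM higher in rich libraries, of which 3013 CPM came from genes other than Ttr. Without untreated Nj 1, the poor library nearest to the threshold, or any other single library, the number counted stayed between 132 and 156. It was 60 when the threshold was lowered to 500 CPM, which places untreated Nj 1 among the rich.

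Genes of known function in the choroid plexus were held in 5 lists with 119 entries, of which 108 were measured well enough to be fitted. Of these 108, 38 were counted as higher (against 0.917% of all genes, a contrast the split itself set). A positive difference was found for 97 and a negative one for 11, beside 6286 and 8986 of all genes, and the median was 0.52. The ranges of 49 were apart with higher values, beside 1.6% of all genes, again a contrast the split set. The ranges of the other 59 overlapped, so not every gene known from the plexus was set apart in these libraries. Otx2, Elf3, Rdh5, Drd4, Clcn2 and Marveld3 were too low to be fitted, and 5 entries (Ecrg4, Car12, Car14, Slco1a5 and Foxj1) could not be matched by name.

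Of 24 secreted carriers, binding proteins and enzymes, 11 were counted as higher, all 24 had a positive difference, and the median was 0.77. Mfrp had the largest difference of the list after Ttr. It was at 64.4 CPM in untreated Nj 3, 144.0 in untreated jj 3, 47.6 and 60.3 in treated Nj 2 and 5, and 109, 80.3 and 99.4 CPM in treated jj 2, 4 and 5. Poor libraries had 0.18 to 13.7 CPM of Mfrp, the highest in untreated Nj 1, and the log2 difference was 5.12 (SE 0.56). Sostdc1, a secreted antagonist of BMP and Wnt signalling, was at 38.3 to 70.8 CPM in rich and 0.13 to 9.00 CPM in poor libraries (4.71, SE 0.52). Enpp2, or autotaxin, which makes lysophosphatidic acid, was at 229.0, 538.9, 238, 259, 444, 299 and 375 CPM in the rich libraries in the same order. Its poor libraries lay between 26.2 and 67.8 CPM, a difference of 3.15 (SE 0.26) above a level that did not go to 0. Tf, the iron carrier transferrin, was at 182.1 to 340.7 against 40.3 to 88.4 CPM (2.28, SE 0.16). Clu, or clusterin, a secreted chaperone, was at 397.5 to 716.9 against 147.2 to 239.5 CPM (1.40, SE 0.11). Igfbp2, a binding protein of insulin-like growth factors, had ranges that nearly met, 228.9 to 474.5 against 107.8 to 227.2 CPM (1.09, SE 0.14). Igf2 itself overlapped, at 273.6 to 553.3 against 94.8 to 409.6 CPM (0.90, SE 0.31). Ptgds, a prostaglandin synthase of plexus and meninges, was at 126.5 to 1143 against 132.5 to 1662 CPM (0.10, SE 0.52).

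Of 22 ion, bicarbonate and water transporters, 10 were counted as higher and the median was 0.45. Slc4a5, a sodium bicarbonate cotransporter of the apical membrane, was at 20.6 to 68.4 CPM in rich and 0.34 to 4.87 CPM in poor libraries (4.41, SE 0.42). Aqp1, the plexus water channel, was at 46.6 to 131.4 against 2.40 to 13.2 CPM (3.90, SE 0.36). Kcne2, a potassium channel subunit, was at 37.3 to 75.2 against 2.44 to 11.1 CPM (3.61, SE 0.28), and Trpv4, an osmosensitive calcium channel, at 3.55 to 12.8 against 0.18 to 1.92 CPM (3.41, SE 0.34). Kcnj13, an inward rectifier potassium channel, was at 24.4 to 43.6 against 0.66 to 9.22 CPM (3.07, SE 0.41). Atp1b1, a sodium pump subunit, differed by -0.06 (SE 0.04), at 1077 to 1438 against 1072 to 1386 CPM. Slc12a2, the sodium, potassium and chloride cotransporter, had ranges apart with a small difference, 86.1 to 117.9 against 72.0 to 82.6 CPM (0.36, SE 0.05). The values of Atp1b1 and Slc12a2 were chosen after they were seen.

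Of 26 carriers of folate, nutrients, metals and organic anions, 4 were counted as higher, with a median of 0.35. Slc16a8, a lactate carrier, was at 1.99 to 11.3 against 0 to 0.41 CPM (4.51, SE 0.33). Folr1 had a difference of 3.20 (SE 0.21). Steap1, a metalloreductase family member, was at 4.77 to 8.92 against 0.51 to 2.29 CPM (2.62, SE 0.20), and Abca4, a retinoid flippase, at 3.43 to 8.98 against 1.00 to 2.43 CPM (1.77, SE 0.21). Outside the list, Slco1a2, an organic anion carrier, was at 17.4 to 32.8 against 0.04 to 3.58 CPM (5.08, SE 0.47).

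Of 17 junction, keratin and apical membrane genes, 5 were counted as higher and the median was 0.52. Cldn2, a pore-forming claudin, was at 37.0 to 70.5 against 0.62 to 9.44 CPM (4.39, SE 0.36). Cldn1, a sealing claudin, was at 18.6 to 28.6 against 4.01 to 9.41 CPM (2.07, SE 0.11). Krt18, an epithelial keratin, was at 7.28 to 17.9 against 2.06 to 4.46 CPM (2.04, SE 0.17), and Rab11fip1, an endosome recycling adaptor, at 5.81 to 14.7 against 1.28 to 3.29 CPM (1.90, SE 0.18).

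Of 19 receptors, signalling proteins and transcription factors, 8 were counted as higher, with a median of 0.60. Kl led with 4.91 (SE 0.45), followed by F5, coagulation factor V, at 28.3 to 66.3 against 0.89 to 6.16 CPM (4.15, SE 0.36). Ace, the angiotensin converting enzyme, was at 41.1 to 122.1 against 7.62 to 18.2 CPM (2.63, SE 0.22). Lmx1a, a homeodomain factor of the roof plate and cortical hem from which the plexus arises, was at 5.68 to 14.7 against 1.03 to 2.09 CPM (2.50, SE 0.15). The remaining genes of the 15 largest differences were in no list: Tmem72, a transmembrane protein (4.85, SE 0.53), Prr32 (3.49, SE 0.26) and Col8a1, a short-chain collagen (3.27, SE 0.34). Clic6 differed by 4.11 (SE 0.38).

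**Figure D3:**
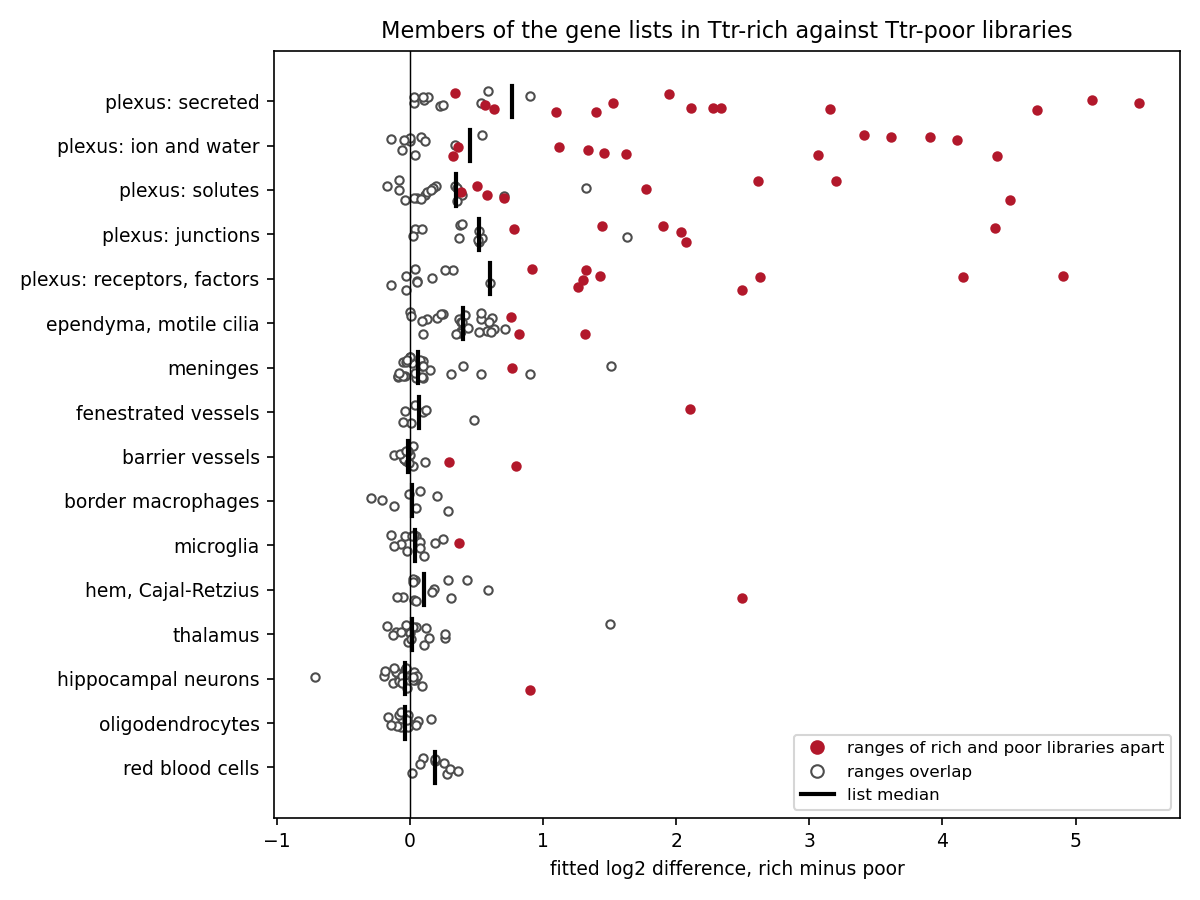
Fitted log2 difference of rich from poor libraries for each fitted member of 16 gene lists, filled red where the CPM ranges of the 7 rich and 13 poor libraries were apart and open where they overlapped, with the list median as a black bar. The 5 plexus lists have medians of 0.35 to 0.77, the cilia list 0.40, and the other lists lie between -0.04 and 0.19.

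Lists for other cells that a hippocampal lobe can hold were read in the same way. Of all 15272 genes, 6286 had a positive difference. Of 28 genes of motile cilia, as in ependyma, all 28 had a positive difference with a median of 0.40, and 1 was counted as higher. That gene, Cfap126, was at 16.3 to 31.6 CPM in rich and 6.42 to 12.6 CPM in poor libraries (1.32, SE 0.12). The summed level of this list was 353.9 to 586.9 CPM in rich and 279.6 to 402.1 CPM in poor libraries, so the sets overlapped. Of 26 genes of meningeal fibroblasts 0 were counted as higher (median 0.06), and their sum was 1074 to 1828 against 785 to 1775 CPM. Fmod, a collagen-binding proteoglycan, had the largest difference of that list (1.51, SE 0.29) with overlapping ranges, and Postn, or periostin, was at 13.2 to 18.6 CPM in rich libraries (0.77, SE 0.11) with ranges apart. Of 8 genes of fenestrated endothelium 1 was counted as higher: Plvap, the diaphragm protein of fenestrae, at 4.03 to 11.4 against 1.00 to 2.14 CPM (2.10, SE 0.18). The list's sum overlapped, at 319.4 to 340.5 against 294.3 to 370.8 CPM.

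Of 15 genes of barrier endothelium 0 were counted as higher (median -0.02), and their sum was 1496 to 1952 against 1441 to 1570 CPM, with Pltp (0.79, SE 0.10) and Bsg (0.29, SE 0.04) apart. Counts were also 0 of 8 border macrophage genes (median 0.02), 0 of 14 microglial genes (0.04), 0 of 16 genes of thalamus and habenula (0.02), 0 of 22 genes of hippocampal neurons (-0.04), 0 of 16 genes of oligodendrocytes (-0.04) and 0 of 9 red cell genes (0.19). Dsp, a desmosome protein in the neuronal list (0.90, SE 0.11), had ranges apart below 2-fold. Of 14 genes of cortical hem and Cajal-Retzius cells 1 was counted as higher, Lmx1a, which is also in a plexus list (median 0.11). Summed neuronal genes were 3287 to 3869 CPM in rich and 3359 to 3885 CPM in poor libraries. At the share over all genes (0.917%) hardly any member would be counted in lists of this size, so no contrast is drawn from counts of 0. The part of cells other than plexus epithelium in the differences above was not tested.

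Below the threshold, the gradient of Ttr over the 13 poor libraries was tested across all genes, with study group as a further term (edgeR quasi-likelihood F-test, Benjamini-Hochberg adjusted p under 0.05). Of 15494 genes, 28 (0.181%) rose with Ttr and 6 (0.0387%) fell. Of the 106 plexus list genes in this fit 14 rose and 0 fell, with a median slope of 0.04 per doubling of Ttr. The lists for other cells, of 8 to 28 genes each in this fit, had 0 members that passed in either direction. At the shares over all genes hardly any would pass in lists of that size, so no contrast is drawn from this. The slope and the rich against poor difference share the 13 poor libraries, so each gene's values are given side by side and not as support for each other. Mfrp rose by 0.76 on the log2 scale per doubling of Ttr (SE 0.05, adjusted p = 6.54e-09) and Tmem72 by 0.79 (SE 0.05, 8.61e-09). Kl rose by 0.57 (SE 0.05, 1.15e-06), Slc4a5 by 0.50 (SE 0.05, 6.06e-06), F5 by 0.38 (SE 0.04, 8.29e-06), Sostdc1 by 0.71 (SE 0.07, 7.66e-05) and Clic6 by 0.42 (SE 0.04, 0.000116). Ace, Aqp1, Slco1a2, Kcne2, Trpv4 and Cldn2 also passed, with slopes of 0.13, 0.34, 0.71, 0.25, 0.38 and 0.39. A slope of 1 would be a change in proportion to Ttr.

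Several genes that were far higher in rich libraries did not pass within the poor. Folr1 had a slope of 0.13 (SE 0.04, edgeR adjusted p = 0.220), and passed without untreated jj 2 (0.0164). Enpp2 had 0.18 (SE 0.03, adjusted p = 0.055), Kcnj13 0.29 (SE 0.11, 0.482), Tf 0.07 (SE 0.03, 0.504), Cldn1 0.06 (SE 0.02, 0.488) and Lmx1a 0.05 (SE 0.04, 0.767). Hprt1, the purine salvage enzyme, passed with 1.46 (SE 0.16, 0.000862), but its counts were near 0 in most libraries: it was at 8.35 CPM in untreated jj 2 and 5.23 CPM in treated Nj 4, and under 0.5 CPM in the 11 other poor libraries. Of the genes that fell, Camk2g, a calcium and calmodulin-dependent kinase subunit, had -0.18 (SE 0.03, adjusted p = 0.00315) and Hunk, a kinase, -0.07 (SE 0.01, 0.0459). The number called depended on single libraries. It was 203 without untreated Nj 5, the library with the least Ttr, and 18 without treated Nj 4, while the plexus list count stayed between 11 and 19.

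**Figure D4:**
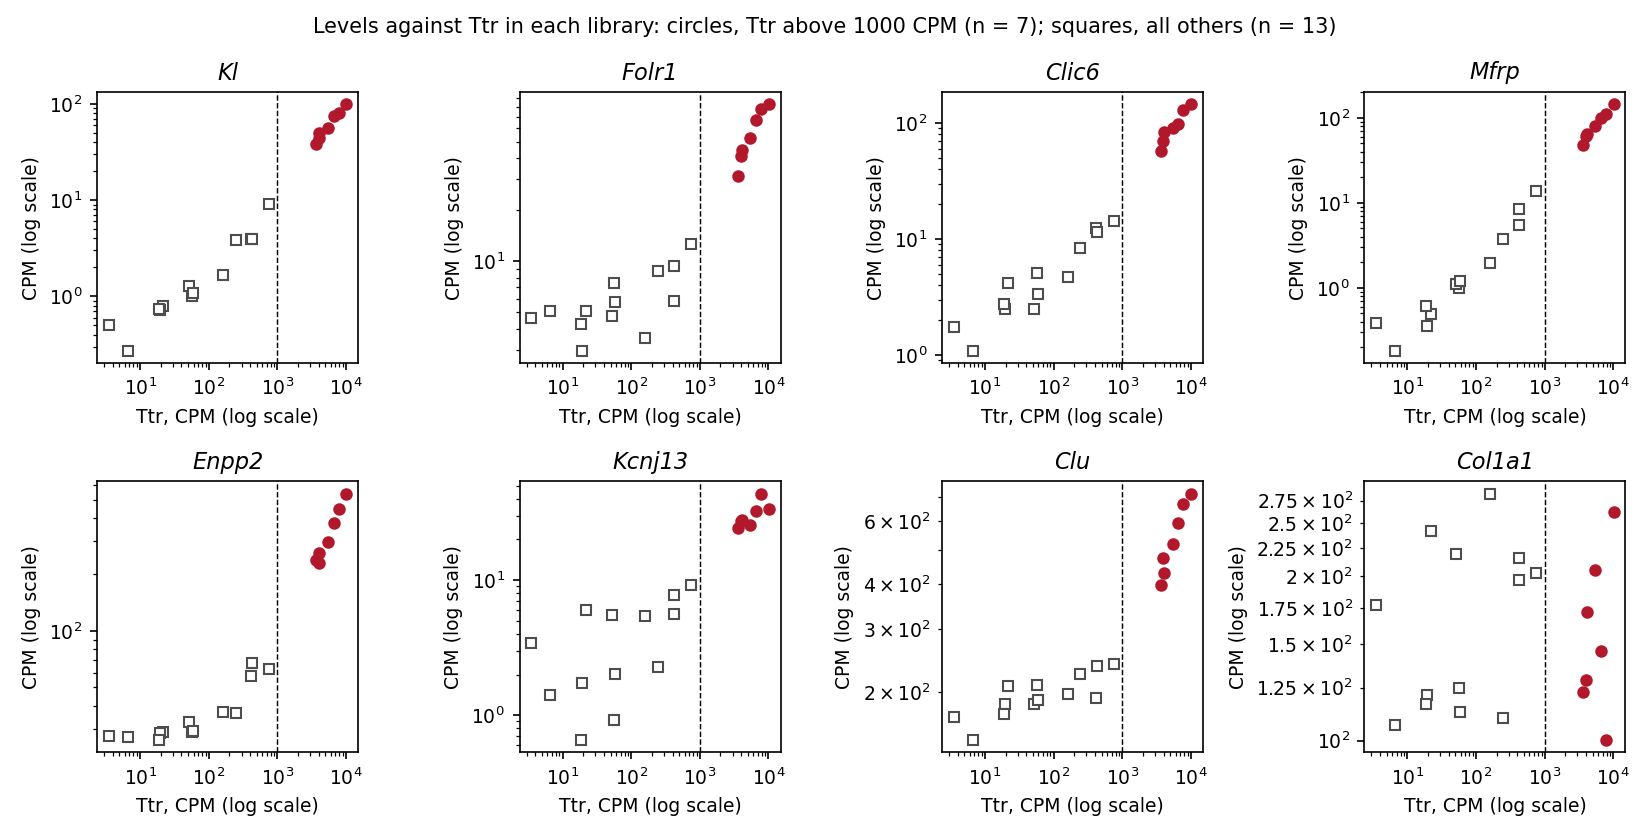
Level of 8 genes against Ttr in each library, both in CPM on log scales, with 7 Ttr-rich libraries as filled circles, 13 poor libraries as open squares and the 1000 CPM threshold as a dashed line. Mfrp and Kl rise with Ttr over both sets, with slopes of 0.76 and 0.57 per doubling of Ttr within the poor libraries (1 would be in proportion). Enpp2 and Clu flatten at low Ttr, at 26.2 and 147.2 CPM or more, and Col1a1, a fibroblast collagen, shows rich and poor libraries over the same range.

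Within the rich libraries, the ratio of list genes to Ttr varied less than Ttr itself. This does not show that each gene followed Ttr, since some of them varied little by themselves. For the 29 plexus list genes counted as higher with a mean of at least 10 CPM there, the coefficient of variation (CV) of the ratio over 7 libraries had a median of 14.7% and ran from 5.92 to 26.1%, while Ttr itself had a CV of 39.9%. Mfrp had the lowest CV, 5.92%, with 13.1 to 15.7 CPM for every 1000 CPM of Ttr. Msx1, a homeobox factor of dorsal midline epithelium, had 7.25%, Slc4a5 7.33% and Kl 7.90% (9.79 to 12.3 CPM for every 1000 CPM of Ttr). With the mean of the poor libraries subtracted from the gene and from Ttr, the CV was 6.22% for Mfrp, 8.04% for Slc4a5 and 8.08% for Kl, but 12.4% for Msx1, whose mean was 13.98 CPM in poor and 38.1 CPM in rich libraries. The ratio varied more for Cldn1 (23.0%), Kcnj13 (24.0%), Cab39l, an adaptor of a kinase that regulates ion transport (25.3%), and Sulf1, a heparan sulfate sulfatase (26.1%). Their own levels in rich libraries were 23.6 ± 3.86, 30.7 ± 6.65, 44.6 ± 7.32 and 48.6 ± 8.87 CPM (mean ± SD) in this order. Each of these SDs is a smaller share of its mean than the CV of the ratio, so dividing by Ttr added variation. Kcnj13 had 3.35 to 6.89 CPM for every 1000 CPM of Ttr.

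The split was also entered as a term in the 4 comparisons of the study. With all 15272 genes and edgeR's quasi-likelihood test, untreated jj against untreated Nj had 1 call (0.00655%) with the term and 0 (0%) without it (1164 and 972 genes at an unadjusted p under 0.05, and 5 by DESeq2 with the term). PT in Nj pups had 722 calls (4.73%), 296 higher and 426 lower, with the term and 611 (4%) without it, and 577 genes were called in both fits (1173 by DESeq2 with the term). PT in jj pups had 26 calls (0.17%), 12 higher and 14 lower, with the term and 25 (0.164%) without it, 16 of them in both (309 by DESeq2 with the term, and 3 by edgeR with log2 CPM of Ttr as covariate in its place). Treated jj against treated Nj had 0 (0%) with the term and 0 (0%) without it (978 and 1011 genes at an unadjusted p under 0.05, and 7 by DESeq2 with the term). For PT in Nj the count was 112 when the 7 rich libraries were left out, a fit that holds no Ttr-rich term. With the term it ran from 197 (without untreated Nj 4) to 1085 (without untreated jj 3) over single libraries. For PT in jj it was 0 without the rich libraries, where 4 untreated and 2 treated jj libraries remained. With the term it ran from 0 (without untreated jj 3 or 4 or treated jj 2, 3, 4 or 5) to 56 (without untreated Nj 2). These counts also change with the number of libraries in the fit. In every comparison but treated jj against treated Nj, the groups also differ in the number that opens the sample names.

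**Figure D5:**
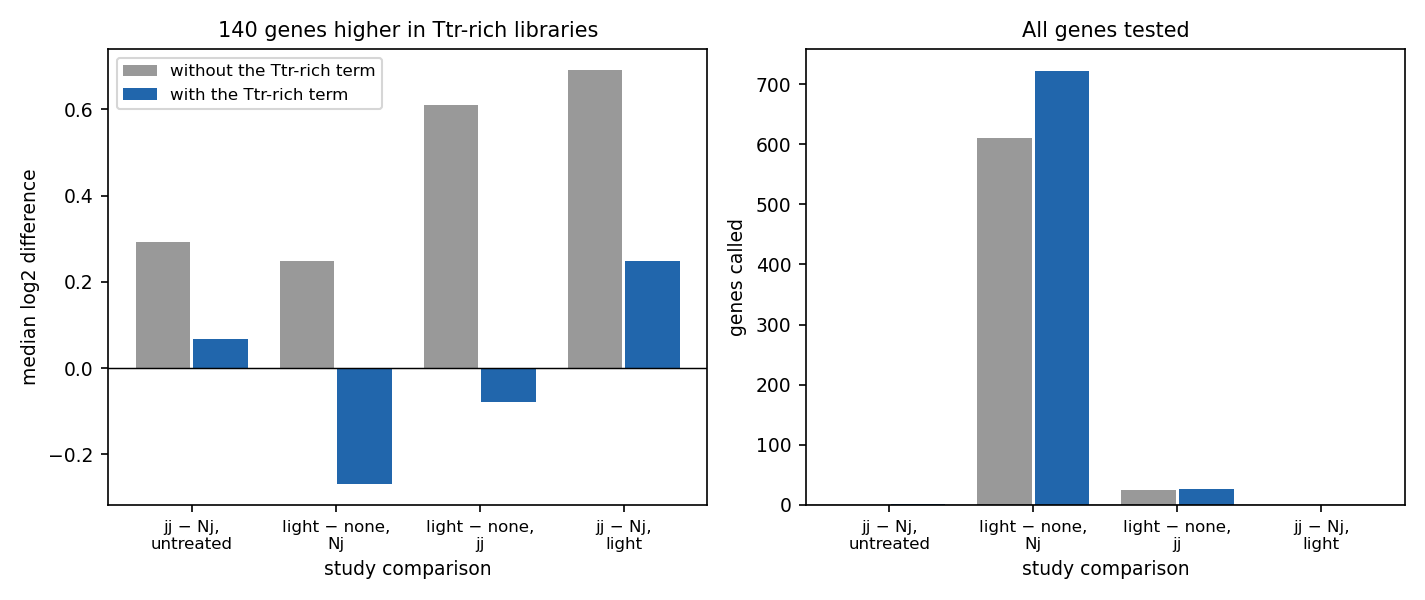
Left, median log2 difference of the 140 genes higher in rich libraries in each of the 4 study comparisons, fitted without (grey) and with (blue) the Ttr-rich term; right, number of the 15272 genes called at an adjusted p under 0.05 in the same fits. Grey bars on the left stand between 0.25 and 0.69 and blue bars between -0.27 and 0.25.

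The 140 genes themselves were followed through the same fits. Without the term their median log2 difference was 0.29 for jj against Nj untreated, 0.25 for PT in Nj, 0.61 for PT in jj and 0.69 for jj against Nj treated, and 0 of 140 were called in each, beside 0, 4, 0.164 and 0% of all genes. With the term the medians were 0.07, -0.27, -0.08 and 0.25, and 0, 2, 0 and 0 were called, beside 0.00655, 4.73, 0.17 and 0% of all genes. Except for PT in Nj, calls were about as rare among all genes. The genes were chosen along this term, so the shift of their medians is a description. Ttr without the term had log2 differences of 0.89 (SE 1.95), 0.60 (SE 1.94), 1.01 (SE 1.95) and 1.30 (SE 1.97) in the same order, and none passed. The 2 genes called for PT in Nj, named after their values were seen, were Mak, a kinase of cilia, and Krt8, an epithelial keratin. Krt8 in poor libraries was at 12.9, 10.6, 14.03 and 8.12 CPM in untreated Nj 1, 2, 4 and 5 and at 5.85, 7.78 and 8.77 CPM in treated Nj 1, 3 and 4. Treated values overlapped the lowest untreated one. In rich libraries it was at 25.1 CPM in untreated Nj 3 and at 14.5 and 19.3 CPM in treated Nj 2 and 5. Its log2 difference was -0.66 (SE 0.17, adjusted p = 0.0316) with the term and -0.33 (SE 0.50, 0.794) without it. Mak had -0.60 (SE 0.14, adjusted p = 0.0175) with the term and -0.33 (SE 0.33, 0.673) without it. With log2 CPM of Ttr as a covariate in place of the term, neither was called: Krt8 had -0.47 (SE 0.17, edgeR adjusted p = 0.113) and Mak -0.48 (SE 0.19, 0.147). Krt8 also rose with Ttr within the poor libraries (edgeR slope 0.09, SE 0.02, adjusted p = 0.0214). Ttr was 752.9, 56.7, 418.3 and 3.53 CPM in untreated Nj 1, 2, 4 and 5. It was 19.4, 18.7 and 425.3 CPM in treated Nj 1, 3 and 4. The part of plexus content in the call of Krt8 was not tested. The slope of Mak within the poor libraries was 0.01 (SE 0.03, edgeR adjusted p = 0.974). When each library was dropped in turn, the call of Krt8 ended in 5 of 20 fits, those lacking untreated Nj 1, untreated Nj 4, treated Nj 1, treated Nj 2 or treated Nj 5 (adjusted p up to 0.0918). The call of Mak ended in the 2 fits lacking untreated Nj 4 or untreated Nj 5 (up to 0.0529).

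The genes with the lowest p were set beside the fit without the term. For PT in Nj, Ttll7, a tubulin polyglutamylase, had a log2 difference of 0.38 (SE 0.05, adjusted p = 0.000504) with and 0.36 (SE 0.05, 0.000774) without the term. Zbtb12, a zinc finger protein, had -0.61 (SE 0.08, adjusted p = 0.000837), Prag1 -0.44 (SE 0.06, 0.000837) and Tnc, the matrix glycoprotein tenascin C, -0.47 (SE 0.07, 0.00151) with the term, and -0.61, -0.45 and -0.48 without it. These 4 calls held in each of the 20 fits that left out a library. For PT in jj, Lynx1, a modulator of nicotinic receptors, had 0.49 (SE 0.08, adjusted p = 0.0331), Tnc -0.41 (SE 0.07, 0.0331), Adamts7, a metalloprotease, -0.50 (SE 0.09, 0.0331) and Tuba4a, a tubulin, 0.34 (SE 0.06, 0.0387) with the term, and 0.47, -0.44, -0.53 and 0.33 without it. The calls of Lynx1, Tnc and Adamts7 were lost without untreated jj 3 or 4 or treated jj 2, 3, 4 or 5, and that of Tuba4a without these or treated Nj 2. With log2 CPM of Ttr as covariate Tuba4a was not called (adjusted p = 0.0506). The 1 call in untreated jj against Nj was Anp32a, a phosphatase inhibitor, at -0.71 (SE 0.11, adjusted p = 0.0282) with and -0.70 (SE 0.12, 0.112) without the term, and dropping each library in turn ended it 14 times of 20 (adjusted p up to 0.309).

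The named calls that were lost on adding the term had an adjusted p of 0.0501 to 0.0729 with it. Of 34 genes called for PT in Nj without and not with it, the 4 named ones with the lowest p were Fbln2, a matrix fibulin (adjusted p = 0.0431 without and 0.0513 with the term), Sod2, the mitochondrial superoxide dismutase (0.0431 and 0.0501), Ubqln4 (0.0442 and 0.0509) and Trmt2a (0.0442 and 0.0501). For PT in jj, 9 genes were called without and not with the term, among them Rassf2 (0.0342 and 0.0554), Nedd4l, a ubiquitin ligase of ion channels (0.0418 and 0.0673), Mical2 (0.0418 and 0.0596) and Plxna2, a semaphorin receptor (0.0459 and 0.0729). None of these 8 was among the 140 genes.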

How the data were processed

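PolyA RNA-seq of 20 hippocampal libraries was analysed from the authors' deposited table of raw gene counts (32883 rat Ensembl genes, no normalization). Per the submitters' processing notes, FastQC, TopHat2 2.0.13, Subread and edgeR were used. The notes name the build mm10 although the table lists rat identifiers, and the rat build is not given in the sources used here. Counting by strand is not stated, so overlapping genes and near-identical copies may share reads. Total counts were 16.9 to 27.1 M (M, mega), and at that depth 3 counts are 0.111 to 0.178 CPM.

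CPM were computed per column total. Fits used R 4.3.3 with edgeR 4.0.16 and limma 3.58.1 (filterByExpr by group, TMM, robust quasi-likelihood with legacy estimates), on all 20 libraries with a mean per group and the Ttr-rich term (above 1000 CPM), or on the 13 poor libraries with log2 CPM of Ttr. Rich against poor was not tested, since the split was made on it; genes were counted at a fitted 2-fold difference with ranges apart. DESeq2 1.42.0 was an alternative, as were size factors, filters, thresholds, terms and leaving out each library. Single values were tested by permutation (SciPy 1.17.1). The fits were also run on simulated data, and that outcome is not given here. Set tests were not run.

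The split, the gene lists and the rule for names were chosen with earlier results of these data known. Named were the 4 markers, the 15 largest higher and the lowest differences with a symbol and an average log2 CPM of at least 1, up to 4 members of each list with the largest differences, called genes with the lowest p, and ratios to Ttr with the lowest and highest CV. Other names were chosen after their values were seen. A few list members are not reported here, though counts and sums hold them. List names were matched by symbol or the RefSeq gene table (114 of 119 plexus entries). The series description gives more untreated pups than the 5 per group analysed here.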

Additional observations from a re-analysis of the deposited data

Results flagged for a closer look

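Dixon's test for a value far from the others was run on 80 groups of 5 to 7 libraries, of which chance alone flags about 1 in 20. It marked 9 values, given here without explanation. Folr1 in untreated jj 3 was 82.62 CPM, with the next library of its group at 5.127 CPM; this is the Ttr-rich library of that group. The summed barrier endothelium list was also highest there, at 1952 CPM against 1570 CPM.

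In untreated jj 5 the sums of the meninges list (784.6 CPM, next 1456), the microglia list (187.7 CPM, next 216.7) and the oligodendrocyte list (731.9 CPM, next 865.1) were the lowest of the group. Untreated Nj 3 was lowest among the 7 rich libraries for the fenestrated endothelium list (319.4 CPM, next 332.1) and for the hippocampal neuron list (3287 CPM, next 3735). The neuron list was also lowest in treated Nj 4 among treated Nj libraries (3729 CPM, next 3846), and the border macrophage list in untreated Nj 2 among untreated Nj libraries (38.11 CPM, next 53.81).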

How the results depend on the processing

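The count of genes higher in rich libraries was 60 with a threshold of 500 CPM and 132 to 156 over single libraries left out, and the count of lower genes was 2 in light-treated libraries alone and 0 in every fit that left out a library. Calls for jj against Nj untreated were 0 with no Ttr-rich term, with log2 CPM of Ttr as covariate in its place, or with the rich libraries left out, a fit without the term. With the term they were 5 by DESeq2 and 0 to 1 over single libraries. For PT in Nj they were 112 with the rich libraries left out, 1173 by DESeq2, and 197 to 1085 over single libraries. For PT in jj they were 3 with log2 Ttr as covariate, 0 with the rich libraries left out, 309 by DESeq2, and 0 to 56 over single libraries. For jj against Nj treated they were 7 by DESeq2 and 0 to 1 over single libraries. Genes that follow Ttr within poor libraries numbered 15 without the group term, 67 by DESeq2, and 18 to 203 over single libraries. DESeq2 used its own filter, so its counts come from another gene set; otherwise the cause was not tested.

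Over single libraries left out, the difference of Ttr by PT was 1.55 to 2.83 (adjusted permutation p 0.182 to 0.685) and by genotype -0.03 to 1.29, the reversed value -0.0340 without untreated Nj 5. Marker r with Ttr was 0.974 to 0.991 (Kl), 0.960 to 0.981 (Folr1) and 0.937 to 0.984 (Clic6) in rich and 0.945 to 0.975, 0.520 to 0.760 and 0.917 to 0.950 in poor libraries, with 1 call lost, that of Folr1 in poor libraries. Of 2259 alternative values for 78 named genes, 2200 moved by less than the SE of the main fit and 57 by more. A change of sign was counted only for genes at least 2-fold apart in the main fit. It was found for 2 values, both of Selenow: 2.08 with a threshold of 500 CPM and 0.46 in light-treated libraries alone. Smaller differences that changed sign are among the 2200 or the 57.

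No paired analysis was possible because the labels carry no replicate numbers that link pups of different groups. Depth limits genes near 1 CPM, 42 of the 140 in poor libraries. The threshold lies in a gap of Ttr, and untreated Nj 1 sits next to it.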

Other observations

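Beyond the lists, 100 of the 140 genes higher in rich libraries were in no list. A few are named here after their values were seen. Ca14 and Ca12, carbonic anhydrases that were not matched to their list entries, differed by 2.83 (SE 0.41) and 1.03 (SE 0.09) on the log2 scale; Ca14 was at 17.7 CPM on average in rich and 2.77 CPM in poor libraries. Atp4a, the catalytic subunit of the gastric proton pump, differed by 3.34 (SE 0.38) at 1.76 against 0.16 CPM, and Kcnq1, the potassium channel that Kcne2 can join, by 2.49 (SE 0.28) at 1.60 against 0.27 CPM. Igsf1, an immunoglobulin superfamily membrane protein, differed by 2.14 (SE 0.22) at 107.7 against 23.3 CPM. Mdk, the growth factor midkine, differed by 1.44 (SE 0.13) at 87.2 against 31.4 CPM. Sod3, the extracellular superoxide dismutase, differed by 2.17 (SE 0.20) at 24.6 against 5.63 CPM, and also rose with Ttr within the poor libraries (slope 0.15, SE 0.03, edgeR adjusted p = 0.0223).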
